A study of Mus musculus with 14 samples.

Results

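The miR-99, miR-100 and miR-125 families were followed in plasma of 8 mice of a genetically engineered mouse model (GEMM) with osteosarcoma (OS), a bone tumour, and 6 wild-type control mice, 1 sample per mouse. Their members are the assays whose names, without species prefix, arm and copy number, read miR-99a, miR-99b, miR-100, miR-125a or miR-125b. There are 9 of them among the 389 named assays of a quantitative PCR screen on Exiqon mouse panels I and II, in which each well amplifies a single miRNA with locked nucleic acid primers. The assays are mmu-miR-99a, mmu-miR-99b and its passenger arm mmu-miR-99b*, mmu-miR-100, mmu-miR-125a-5p and mmu-miR-125a-3p, mmu-miR-125b-5p and mmu-miR-125b-2-3p, and 1 assay under a rat name, rno-miR-125b*. The mice with OS carry Cre recombinase under a 2.3 kb Col-α1(I) promoter, which is active in osteoblasts, together with 1 or both Trp53 alleles flanked by LoxP sites, so that the tumour arises from loss of p53 in bone-forming cells. The labels give a median age at OS of 54 weeks for the loss of 1 allele and 38 weeks for the loss of both, but which of these each mouse had, and its own age, are not given there. The controls were wild-type littermates, described in the methods as p53+/+;Cre+/-, and the study calls them matched in age. Blood was drawn from the heart, into EDTA, once a tumour had formed. Plasma holds RNA from many tissues, so a change in the number of cells that release a miRNA cannot be told apart from a change in how much each cell releases.

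A miRNA guides a silencing complex to messenger RNAs mainly through its seed, bases 2 to 8 from the 5′ end, so miRNAs with the same seed can reach the same targets. miR-99a, miR-99b and miR-100 share a seed and are known to repress mTOR and parts of the insulin-like growth factor pathway. miR-125a and miR-125b are the mammalian relatives of lin-4, the first miRNA described in worms. miR-125b is known to bind the p53 messenger RNA in humans and zebrafish, and in mouse cells to restrain osteoblast differentiation. The genes of both families lie side by side with let-7 genes in clusters, an arrangement that is old in animal evolution.

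The mature sequences are shown because the assays have to tell near-identical miRNAs apart. Of the 9 assays, 8 were matched to a mature sequence of RefSeq (GRCm38.p6), where the older unmarked names stand for the 5p arm and miR-99b* for the 3p arm. The sequence behind rno-miR-125b* is not shown. Capitals mark the seed. All lie on the plus strand.
miR-99a-5p, chr16:77598940-77598961: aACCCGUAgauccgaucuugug
miR-100-5p, chr9:41531437-41531458: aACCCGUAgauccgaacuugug
miR-99b-5p, chr17:17830194-17830215: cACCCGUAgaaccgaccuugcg
miR-125b-5p, chr9:41581940-41581961 and chr16:77646279-77646300: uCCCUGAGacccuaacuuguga
miR-125a-5p, chr17:17830817-17830840: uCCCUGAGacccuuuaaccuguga
miR-125b-2-3p, chr16:77646318-77646339: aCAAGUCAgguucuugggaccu
miR-125a-3p, chr17:17830855-17830876: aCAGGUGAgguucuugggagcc
miR-99b-3p, chr17:17830232-17830253: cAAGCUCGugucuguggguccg

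Counted from 1 at the 5′ end, miR-99a and miR-100 differ by 1 of 22 bases, U16A with the base of miR-99a first. miR-99b differs from miR-99a at 4 bases, A1C, U11A, U16C and U21C. miR-125a-5p and miR-125b-5p share their first 13 bases and their last 5, and miR-125a-5p has 24 bases. How far the primers for miR-99a also amplify miR-100, or those for miR-125a-5p also miR-125b-5p, was not tested.

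The genes form 3 clusters. Mir100, Mirlet7a-2 and Mir125b-1 span 50.6 kb of chromosome 9 within the long noncoding RNA gene Mir100hg. Mir99a, Mirlet7c-1 and Mir125b-2 span 47.4 kb of chromosome 16. Mir99b, Mirlet7e and Mir125a lie within 692 bases of chromosome 17, inside the span of Spaca6. miR-125b-5p is the same molecule from both of its genes, so its assay sums the chromosome 9 and chromosome 16 clusters, whereas miR-125b-2-3p comes from Mir125b-2 alone. let-7a and let-7c have further genes elsewhere, and let-7a-1* is named for a gene outside these clusters. miR-99b, miR-125a and let-7e have 1 gene each, all in the chromosome 17 cluster.

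The values are quantification cycles (Cq), on a log2 scale on which a lower Cq stands for more RNA. A Cq above 37 was taken as background. A normalized level is the global mean Cq of the mouse minus the Cq of the assay, so more RNA gives a higher level. Over the series, 333 to 373 of the named assays were detected in the mice with OS and 341 to 387 in the controls, and the global mean Cq was 32.1 ± 0.446 (SD, n = 8) in OS and 31.7 ± 0.768 (SD, n = 6) in controls (exact permutation test, two-sided, p = 0.206). Red blood cells carry miR-451 and release it when they burst, and the Cq of miR-23a minus that of miR-451 is a marker of this haemolysis. It lay between 1.05 and 6.85 in the mice with OS and between 4.11 and 7.21 in controls, and was lowest in OS replicates 10, 12 and 11. miR-451 itself, a defining miRNA of red blood cells, was measured in every mouse, at Cq 19.68 to 23.49 in OS and 17.07 to 21.22 in controls.

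Over all mice miR-125b-5p had the lowest Cq of the families, at 26.1 ± 0.771 (SD, n = 14), and next came miR-125a-5p at 27.9, miR-99a at 28.0 and miR-99b at 29.7. Primers of different assays are not calibrated against each other, so this order is that of Cq and not of molecules. Within mice miR-125a-5p lay 1.80 ± 0.32 cycles above miR-125b-5p (SD, n = 14), in 14 of 14 mice, and miR-99b lay above miR-99a in 13 of 14. miR-125a-5p and miR-99a, the next neighbours in the order, differed by 0.07 ± 1.22 cycles (SD, n = 14) and kept this order in only 6 of 14 mice. The passenger arms miR-125b-2-3p (mean Cq 33.3) and miR-99b* (33.8) and the arms near the limit, miR-125a-3p (35.2) and rno-miR-125b* (36.0), had higher Cq. The guide miR-100, at a mean Cq of 35.6 (n = 13), lay among these arms, 7.97 ± 0.62 cycles (SD, n = 13) above miR-99a in the same mice. Its neighbours differed from it by less than the spread between mice: miR-125a-3p lay 0.38 ± 1.31 cycles below miR-100 (SD, n = 10) and rno-miR-125b* 0.55 ± 1.21 cycles above it (SD, n = 10). Ranked by normalized level among the 388 miRNAs tested, highest first, miR-125b-5p was 23 in the mice with OS and 33 in controls, and miR-99a was 64 in OS and 48 in controls. miR-100 was 370 in OS and 323 in controls.

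**Figure D1:**
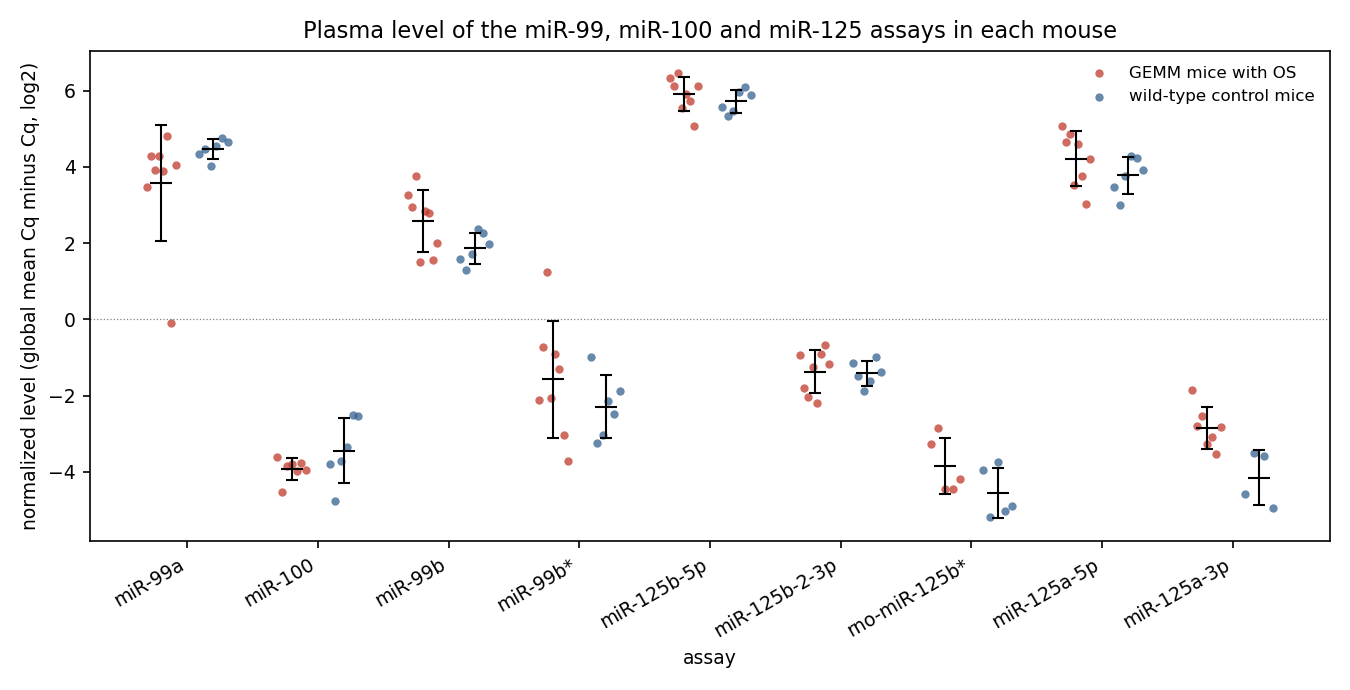
Normalized plasma level (log2, vertical axis) of the 9 assays of the families. Each point is 1 mouse, GEMM mice with OS left of wild-type controls, and bars are the mean and SD. Values above Cq 37 are not drawn, which leaves 7 OS mice for miR-100 and miR-125a-3p, 4 controls for miR-125a-3p, and 5 mice of each group for rno-miR-125b*. The single low point of miR-99a, at -0.08, is OS replicate 18.

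None of the 9 assays passed limma at an adjusted p of 0.05, whereas 12.6% of all 388 miRNAs tested did, 6.19% higher and 6.44% lower in OS. At an unadjusted limma p under 0.05 there was 1, miR-125a-3p, against 30.7% of all miRNAs tested. With the methods' t-test the number past the adjusted threshold was likewise 0. In 7 of the 9 assays the estimate was above 0, against 193 of all 388 miRNAs tested. The median log2 difference of the 9, OS minus control, was 0.44, against -0.0027 over all miRNAs tested. The 9 assays include arms of the same hairpins and members of the same clusters, so their directions are not separate results. Below 0 were miR-99a and miR-100. Of the 6 assays measured in every mouse, none separated the groups without overlap, against 1.81% of all miRNAs measured in every mouse.

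miR-125b-5p, the member with the lowest Cq, did not pass, and the groups overlapped. Its normalized level in the mice with OS was 5.09 at the lowest, 6.01 at the median and 6.47 at the highest, against 5.33, 5.74 and 6.09 in controls. Among the 8 OS mice, 4 exceeded all controls, OS replicate 18 was under all of them and 3 fell in their range. The mean was 5.91 ± 0.45 in OS (SD, n = 8) and 5.72 ± 0.31 in controls (SD, n = 6), a log2 difference of 0.19 (standard error 0.30, 95% confidence interval -0.45 to 0.83, limma adjusted p = 0.704). The estimate was -0.24 with unscaled Cq and -0.02 once the haemolysis marker entered the fit, and neither passed. The other arm of the second gene, miR-125b-2-3p, was -2.19, -1.21 and -0.66 in OS at the lowest, the median and the highest, against -1.88, -1.44 and -1.0002 in controls. It had a log2 difference of 0.05 (95% confidence interval -0.63 to 0.73, limma adjusted p = 0.949), with a direction that changed with the scaling. The rat-named rno-miR-125b* was measured in 5 mice of each group. Its levels were -3.28, -2.84, -4.45, -4.46 and -4.18 in OS, and -3.95, -5.18, -3.73, -5.03 and -4.89 in controls. These ranges overlapped, and the log2 difference was 0.71 (limma adjusted p = 0.318). The assay was above the limit in OS replicates 16, 18 and 19 (Cq 37.27, 39.32 and 37.9) and in control replicate 3 (Cq 37.66). It was thus detected in 5 of 8 mice with OS and 5 of 6 controls (Fisher's exact test, two-sided, p = 0.580). The log2 difference was 0.31 with missing values at Cq 38 and 0.22 with a Cq limit of 40.

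miR-99a did not pass, and its range in OS was set by 1 mouse. It was -0.08 at the lowest, 3.99 at the median and 4.80 at the highest in OS, against 4.01, 4.51 and 4.77 in controls. Among the mice with OS, 4 lay below every control, 3 lay within their range and 1 lay above it. The mean was 3.58 ± 1.53 in OS (SD, n = 8) and 4.47 ± 0.27 in controls (SD, n = 6), a log2 difference of -0.89 (standard error 0.58, 95% confidence interval -2.10 to 0.32, limma adjusted p = 0.297). OS replicate 18 carried much of it, with a Cq of 32.57 for miR-99a where the other 13 mice lay between 25.82 and 28.81. Without it the log2 difference was -0.37 (limma adjusted p = 0.411). In the same mouse miR-100 was above the limit at Cq 38.25. miR-125b-5p and miR-125a-5p were also at their highest Cq of the 14 mice there, at 27.40 and 29.45. These lay near the 27.26 and 29.37 of control replicate 1. The global mean Cq of this mouse was 32.5, within the range of the other mice (30.6 to 32.9). With all mice kept and the haemolysis marker in the fit, the log2 difference of miR-99a was -1.26 (limma adjusted p = 0.306).

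miR-100 was measured in 7 mice with OS and all 6 controls. Its level was -4.53, -3.84 and -3.62 in OS at the lowest, the median and the highest, against -4.76, -3.52 and -2.52 in controls. All 7 mice with OS that had a value lay within the range of the controls. OS replicate 18, above the limit at Cq 38.25, is left out of this count. The mean was -3.93 ± 0.29 in OS (SD, n = 7) and -3.45 ± 0.85 in controls (SD, n = 6), a log2 difference of -0.48 (standard error 0.38, 95% confidence interval -1.28 to 0.32, limma adjusted p = 0.419). With OS replicate 18 kept, the log2 difference was -0.68, both with missing values at Cq 38 and with a Cq limit of 40, and neither passed. At a Cq limit of 35, miR-100 was detected in 0 of 8 mice with OS and 2 of 6 controls (Fisher's exact test, two-sided, p = 0.165). The highest levels were those of control replicates 13 and 14, at -2.52 and -2.54, which also had 2 of the 3 highest haemolysis markers of the series (7.21 and 6.88). Once the haemolysis marker entered the fit, the log2 difference of miR-100 was -0.26 (limma adjusted p = 0.814).

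The family members of the chromosome 17 cluster all had estimates above 0, and none passed. miR-99b was 1.51, 2.81 and 3.76 in OS at the lowest, the median and the highest, against 1.30, 1.85 and 2.37 in controls. In 5 OS mice it exceeded all controls, and in the other 3 it fell within their range. The means were 2.58 ± 0.81 in OS (SD, n = 8) and 1.87 ± 0.41 in controls (SD, n = 6), a log2 difference of 0.71 (standard error 0.39, 95% confidence interval -0.10 to 1.52, limma adjusted p = 0.220), or 0.33 once the haemolysis marker entered the fit. Its passenger arm miR-99b* had levels of -3.71, -1.68 and 1.26 in OS against -3.24, -2.32 and -0.98 in controls, with a log2 difference of 0.72 (limma adjusted p = 0.455). That was 0.31 without OS replicate 12, the mouse with the highest level, and with the panels scaled separately it was 0.27, against 0.96 for miR-99b. miR-125a-5p was 3.04, 4.41 and 5.09 in OS against 3.00, 3.84 and 4.29 in controls. In 4 OS mice it exceeded all controls, with a log2 difference of 0.44 (limma adjusted p = 0.446).

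miR-125a-3p came closest to the threshold. Its levels were -1.86, -2.80, -2.54, -3.28, -3.09, -3.54 and -2.83 in the 7 mice with OS that had a value, and -4.59, -3.50, -3.59 and -4.94 in the 4 controls that had one. In 6 of these 7 OS mice it exceeded all 4 controls. The log2 difference was 1.31, or 2.47-fold (standard error 0.43, 95% confidence interval 0.39 to 2.23, limma adjusted p = 0.0600; exact permutation test, two-sided, p = 0.00606). Its values lie near the limit of Cq 37, and OS replicate 15 and control replicates 1 and 3 were above it, at Cq 37.09, 37.22 and 40. It was detected in 7 of 8 mice with OS and in 4 of 6 controls (Fisher's exact test, two-sided, p = 0.538). It passed limma when scaled to the median (adjusted p = 0.0402) or the mean (adjusted p = 0.0451) of the miRNAs measured in every mouse, when the panels were scaled separately (adjusted p = 0.0404), and without OS replicate 15 (adjusted p = 0.0456) or 18 (adjusted p = 0.0493). OS replicate 15 had no value for miR-125a-3p, so leaving out that mouse kept the log2 difference at 1.31. Over all alternatives the limma adjusted p ran from 0.0402 to 0.588. Once the haemolysis marker entered the fit the log2 difference was 0.85 (limma adjusted p = 0.331).

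**Figure D2:**
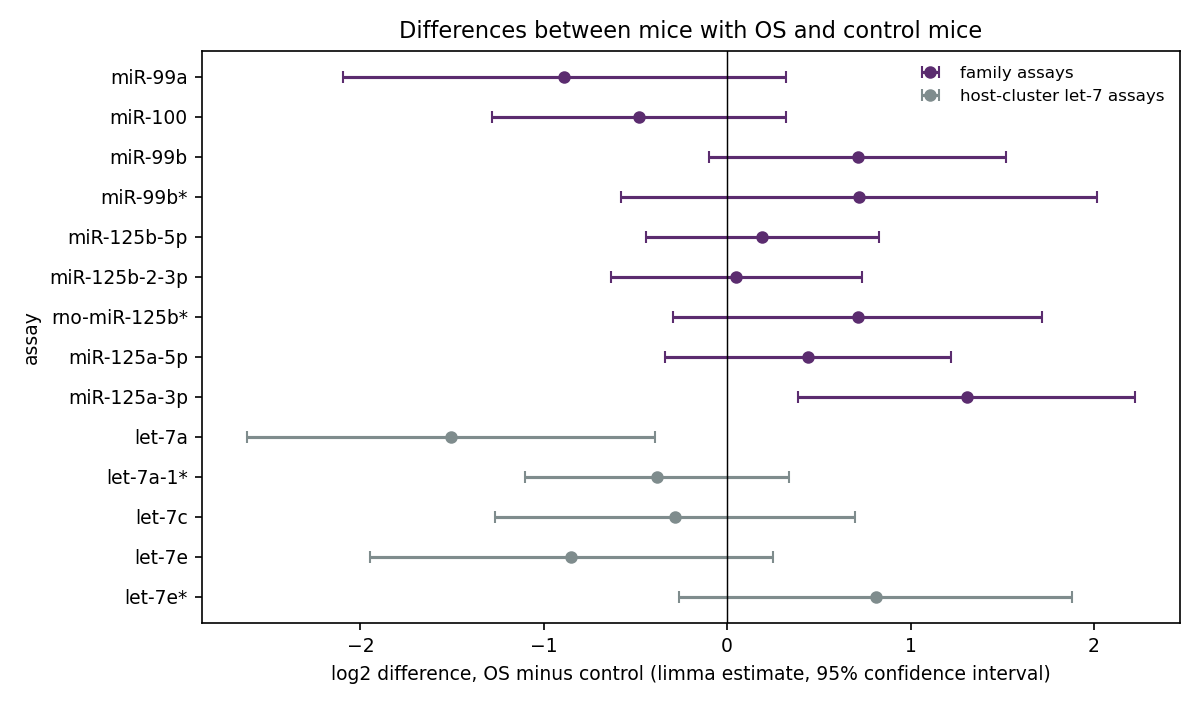
Log2 differences in normalized level, GEMM mice with OS minus wild-type controls (horizontal axis), for the 9 assays of the families and the 5 assays of let-7a, let-7c and let-7e. Points are limma estimates and bars 95% confidence intervals. The intervals of miR-125a-3p (0.39 to 2.23) and let-7a (-2.62 to -0.39) leave out 0 before adjustment, and none of the 14 passed after it.

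let-7 miRNAs, which restrain growth, were set beside the families because let-7a, let-7c and let-7e each have a gene in one of the clusters. Of their 5 assays, which include let-7a-1* from outside the clusters, none passed limma, and 4 of the 5 estimates were below 0. let-7e, whose gene lies between those of miR-99b and miR-125a, was -3.04, -1.78 and -0.96 in OS at the lowest, the median and the highest, against -2.95, -0.56 and 0.52 in controls (log2 difference -0.85, limma adjusted p = 0.274). The opposite arm of the same hairpin, let-7e*, was -4.08, -2.27 and -0.47 in OS against -4.00, -2.81 and -2.57 in controls, and 6 OS mice exceeded all controls (log2 difference 0.81, limma adjusted p = 0.284). let-7a had the estimate farthest from 0 of the 5, a log2 difference of -1.51 (95% confidence interval -2.62 to -0.39, limma adjusted p = 0.0718). It passed without OS replicate 15 (adjusted p = 0.0344) and without control replicate 1 (adjusted p = 0.0146), the mouse with the lowest let-7a of the controls, at -1.97. It did not pass in the other alternatives, with a limma adjusted p of up to 0.163 when 1 mouse was left out and of 0.350 with the haemolysis marker, where the log2 difference was -0.96. let-7c had a log2 difference of -0.29 and let-7a-1* one of -0.38, or -0.41 and -0.38 with the haemolysis marker.

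Differences between 2 assays in the same mouse do not depend on a scaling of the whole mouse, and 14 such pairs were compared, within a seed, within a cluster and between the arms of a hairpin. A value is the Cq of the second assay minus the Cq of the first, the log2 ratio of first over second. At an unadjusted exact permutation p under 0.05 there were 7 pairs, and after Benjamini-Hochberg adjustment over the 14 there were 0, with the 7 at adjusted p from 0.0541 to 0.0699. The pairs share assays and are thus not separate results.

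Within the miR-99 seed family, miR-99b over miR-99a was -2.77, -1.19 and 1.64 in the mice with OS at the lowest, the median and the highest, against -3.18, -2.60 and -2.17 in controls. In 7 of the 8 OS mice it exceeded all controls, and OS replicate 15 was the one that did not. The mean was -0.995 ± 1.40 in OS (SD, n = 8) and -2.60 ± 0.36 in controls (SD, n = 6), a difference of 1.60 (exact permutation test, two-sided, p = 0.0137, adjusted p = 0.0541). It was 1.22 without OS replicate 18 and lay between 1.22 and 1.85 over the 14 fits that left out 1 mouse, with unadjusted exact p from 0.00291 to 0.0326. miR-99b over miR-100 was higher in OS by 1.34, at 6.66 ± 0.81 (SD, n = 7) against 5.32 ± 0.57 in controls (SD, n = 6), with 5 of 7 OS mice above all controls (exact permutation p = 0.00932, adjusted p = 0.0541). The ratio of miR-99a over miR-100, the pair with a single base between them, was 8.03 ± 0.56 in OS (SD, n = 7) and 7.91 ± 0.74 in controls (SD, n = 6), within the spread between mice (exact permutation p = 0.753). miR-125a-5p over miR-125b-5p was likewise within the spread, at -1.69 ± 0.335 in OS (SD, n = 8) and -1.94 ± 0.25 in controls (SD, n = 6; exact permutation p = 0.150).

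Within the clusters, miR-125b-5p over miR-99a was 2.34 ± 1.30 in OS (SD, n = 8) and 1.26 ± 0.22 in controls (SD, n = 6), with 6 of 8 OS mice above all controls (exact permutation p = 0.0350, adjusted p = 0.0699). The difference of 1.08 was 0.68 without OS replicate 18, and the unadjusted exact p was 0.0567 to 0.0816 when any 1 control was left out. miR-125b-5p over miR-100 was 9.96 ± 0.45 in OS (SD, n = 7) and 9.17 ± 0.60 in controls (SD, n = 6; exact permutation p = 0.0239). In the chromosome 17 cluster the pair miR-125a-5p over miR-99b held closely among controls, at 1.91 ± 0.12 (SD, n = 6), and ranged wider in OS, at 1.64 ± 0.425 (SD, n = 8; exact permutation p = 0.174). Both were also set against let-7e from the same 692 bases. let-7e over miR-99b was -4.48 ± 1.01 in OS (SD, n = 8) and -2.92 ± 1.05 in controls (SD, n = 6; difference -1.56, exact permutation p = 0.0173). let-7e over miR-125a-5p was -6.12 ± 0.75 in OS (SD, n = 8) and -4.83 ± 0.97 in controls (SD, n = 6; difference -1.29, exact permutation p = 0.0193). Both have an adjusted p of 0.0541 over the 14 pairs. let-7c over miR-99a was 0.13 ± 1.92 in OS (SD, n = 8) and -0.475 ± 0.75 in controls (SD, n = 6; exact permutation p = 0.494). let-7a over miR-100 was 2.86 ± 0.81 in OS (SD, n = 7) and 3.89 ± 1.09 in controls (SD, n = 6; exact permutation p = 0.0758, adjusted p = 0.133). The difference in let-7a over miR-100 was -1.03, or -1.44 without control replicate 1 (adjusted p = 0.0326).

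The arms of a hairpin compare products of 1 precursor. For miR-125b-5p over miR-125b-2-3p this does not hold, since miR-125b-5p also comes from Mir125b-1. miR-125a-5p over miR-125a-3p was 6.95, 7.46, 7.40, 7.89, 6.86, 6.58 and 7.04 in 7 mice with OS, and 7.59, 7.79, 7.83 and 8.85 in 4 controls. In 6 of these 7 OS mice it was under all controls, with a difference of -0.85 (exact permutation p = 0.0152, adjusted p = 0.0541). With values above Cq 37 set to Cq 38, so that every mouse counted, the difference was -1.0025 (exact permutation p = 0.0606). miR-99b over miR-99b* was 4.16 ± 1.04 in OS (SD, n = 8) and 4.17 ± 0.85 in controls (SD, n = 6; exact permutation p = 0.987). miR-125b-5p over miR-125b-2-3p was 7.28 ± 0.89 in OS (SD, n = 8) and 7.14 ± 0.32 in controls (SD, n = 6; exact permutation p = 0.724). In these last 2 pairs the arms were on different panels, so the values rest on the calibration between plates, and no source states whether the deposited Cq precede or follow it. With each panel centred by itself, an alternative chosen after seeing the data, the difference was 0.69 for miR-99b over miR-99b* (exact permutation p = 0.228) and 0.84 for miR-125b-5p over miR-125b-2-3p (exact permutation p = 0.0796), against -0.0088 and 0.14 without it.

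With the haemolysis marker in the model, an alternative chosen after seeing the data, the difference in miR-99b over miR-99a was 1.59 (permutation p = 0.0237) and in miR-125b-5p over miR-99a 1.24 (permutation p = 0.0425). That in miR-99b over miR-100 was 0.72, against 1.34 without the marker (permutation p = 0.0691), and those of let-7e over miR-99b and over miR-125a-5p were -1.01 and -0.80 (permutation p = 0.0772 and 0.0766). The difference in miR-125b-5p over miR-100 was 0.40, against 0.79 without the marker (permutation p = 0.191), and that in miR-125a-5p over miR-125a-3p was -0.82 (permutation p = 0.0532). None of the 14 passed after adjustment.

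**Figure D3:**
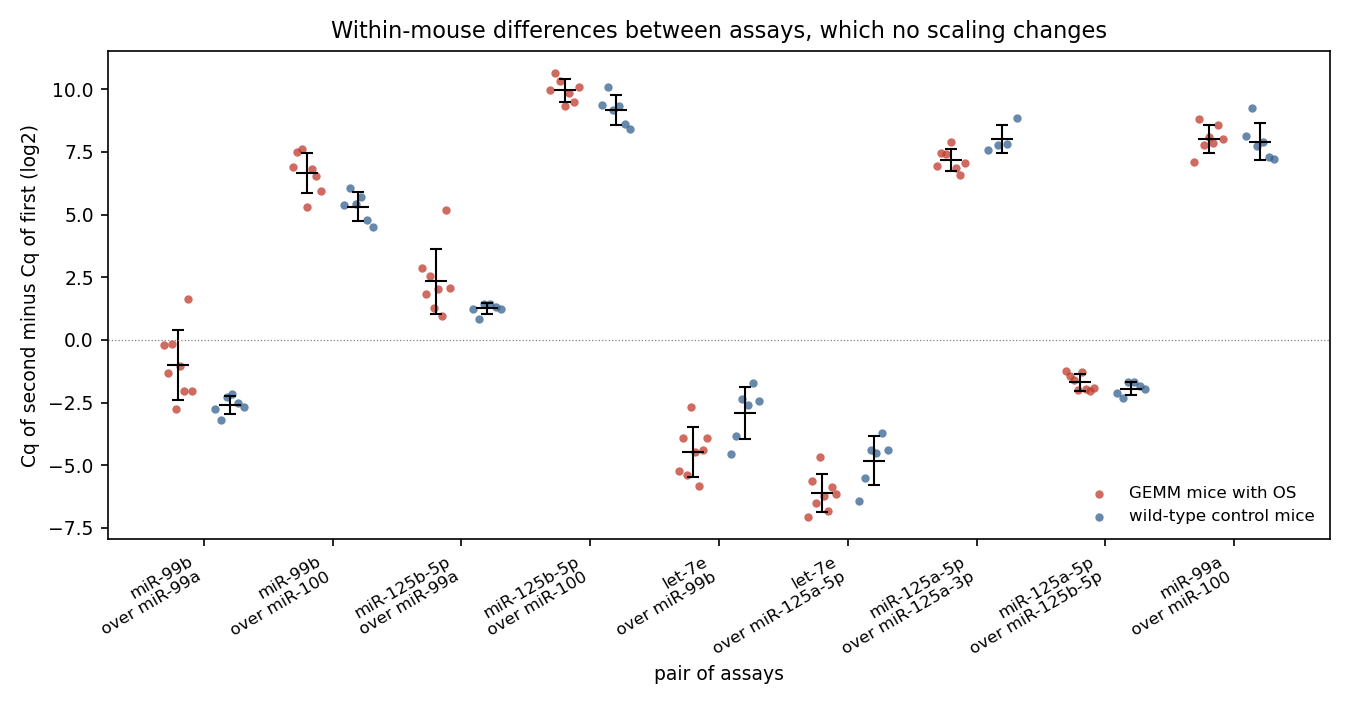
Within-mouse differences for 9 of the 14 pairs of assays, as the Cq of the second assay minus that of the first (log2, vertical axis). Each point is 1 mouse, GEMM mice with OS left of wild-type controls, and bars are the mean and SD. For miR-99b over miR-99a, 7 of 8 OS mice exceed all controls, while miR-99a over miR-100 overlaps between the groups.

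Across mice 3 of 10 pairs of family members had correlations that passed. Pearson's r and Spearman's rho were computed over mice after the group means were subtracted, for the 10 pairs among miR-99a, miR-99b, miR-100, miR-125a-5p and miR-125b-5p, with p from 100000 permutations within groups. The pair with the same seed but different genes, miR-125a-5p and miR-125b-5p, had r = 0.926 (n = 14, permutation p = 2e-05, adjusted p = 0.000200) and rho = 0.947 (permutation p = 2e-05). miR-99b and miR-125a-5p, from the same cluster, had r = 0.871 (n = 14, permutation p = 0.000210, adjusted p = 0.00105) and rho = 0.903 (permutation p = 9e-05). miR-99b and miR-125b-5p, which share neither, had r = 0.834 (n = 14, permutation p = 0.000840, adjusted p = 0.00280) and rho = 0.824 (permutation p = 0.00128). Without the 2 mice farthest from the median these r were 0.863, 0.842 and 0.742. The values of a mouse share its scaling, and scaled instead to 3 reference miRNAs (miR-191, miR-103 and miR-423-3p) they were 0.779, 0.819 and 0.715. The correlations were not adjusted for the haemolysis marker, and its part in them was not tested.

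The other 7 correlations did not pass, with adjusted p from 0.172 to 0.487. miR-99a and miR-125b-5p had r = 0.578 (n = 14, permutation p = 0.0912, adjusted p = 0.182) and rho = 0.218 (permutation p = 0.442). This r was -0.0097 without OS replicates 18 and 10 and -0.18 without OS replicate 18 alone, so that it rested on OS replicate 18. miR-99a and miR-100 had r = 0.185 (n = 13, permutation p = 0.487, adjusted p = 0.487) and rho = 0.401 (permutation p = 0.178). miR-100 and miR-125b-5p, which share the chromosome 9 cluster, had r = 0.523 (n = 13, permutation p = 0.0689, adjusted p = 0.172) and rho = 0.456 (permutation p = 0.132), and r was 0.321 without control replicates 13 and 14. These 2 correlations moved with the scaling, since with the reference miRNAs r was 0.613 for miR-99a and miR-100 and 0.757 for miR-100 and miR-125b-5p, with no test.

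**Figure D4:**
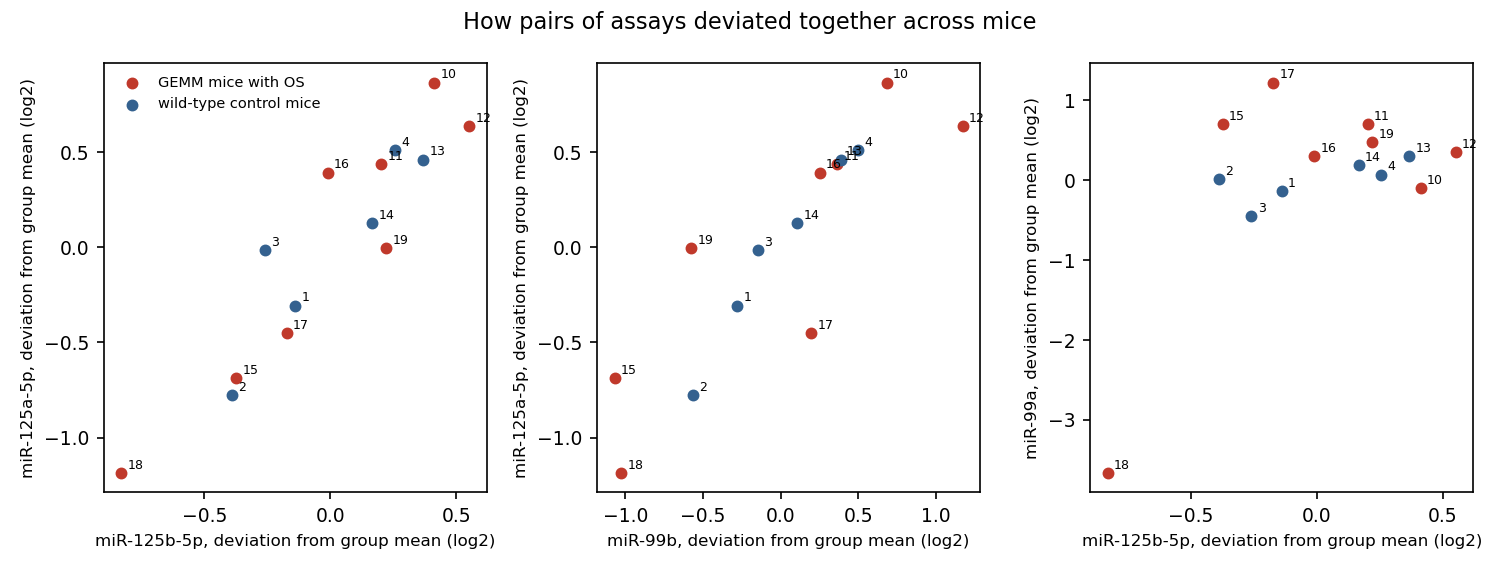
Deviation of each mouse from its group mean in normalized level (log2, both axes) for miR-125a-5p against miR-125b-5p (left), miR-125a-5p against miR-99b (middle) and miR-99a against miR-125b-5p (right). Points are mice, labelled with the replicate number and coloured by group. Pearson's r is 0.926 on the left and 0.871 in the middle, and on the right OS replicate 18 lies far below the other mice.

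Among 270 miRNAs outside the families measured in every mouse, the patterns nearest to miR-125b-5p were those of miR-149 (r = 0.822, rho = 0.714, n = 14), let-7e* (r = 0.781, rho = 0.670), the passenger arm from the chromosome 17 cluster, and miR-1839-3p (r = 0.719, rho = 0.771). Nearest to miR-99a were miR-199a-5p, a miRNA of mesenchymal cells (r = 0.696, rho = 0.402, n = 14), miR-532-5p (r = 0.585, rho = 0.108) and miR-199a-3p (r = 0.582, rho = 0.341). Without OS replicates 18 and 10 the 3 r were 0.492, -0.0837 and 0.470. Nearest to miR-100 were miR-34c, a miRNA whose gene p53 is known to activate (r = 0.717, rho = 0.528, n = 13), miR-652 (r = 0.634, rho = 0.610) and miR-706 (r = 0.614, rho = 0.753). Without the 2 mice farthest from the median of miR-100 they were 0.768, 0.312 and 0.412, and for miR-125b-5p the 3 r were 0.651, 0.562 and 0.784 in the same way. These r are the highest of many and are given as a description.

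Of 28 assays of miRNAs from connective tissue, cartilage and vessel walls, 2 were higher in OS, against 6.19% of all miRNAs tested, and 26 did not pass, with a median log2 difference of -0.36. Both were assays of 1 miRNA, the mouse and rat assays of miR-214 (log2 difference 2.22 and 2.34, limma adjusted p = 0.0457 and 0.0347), and neither passed when OS replicate 10, 11, 12 or 16 was left out, or control replicate 2, 3, 13 or 14. Among miRNAs of other sources, 3 of 9 assays of red blood cells and 2 of 11 of white blood cells were lower in OS, against 6.44% of all miRNAs tested, and none of 8 of platelets, 8 of muscle or 4 of liver passed. The lists overlap, since miR-24 is in those of connective tissue and platelets, and miR-223 in those of platelets and white blood cells. The summed level of the red blood cell list was 826 to 8098 in OS and 4069 to 16665 in controls, relative to the global mean of the mouse, and its part in the ratios above was not tested beyond the haemolysis marker.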

How the data were processed

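Plasma miRNAs of 8 GEMM mice with OS and 6 wild-type controls were measured by the authors with quantitative PCR on Exiqon mouse panels I and II (Roche LC480). The deposited Cq values are not normalized and come from 768 wells per mouse, of which 392 carry a name here (389 assays), and 13.9% to 24.7% of wells were blank. The authors' table of fold changes and p-values was used only for the names of wells. As in the methods, Cq above 37 was treated as missing and miRNAs missing in 75% or more of mice were removed (388 kept, and the same number when the limit was applied in each group too). The global mean of each mouse was taken with missing values filled by the group mean, or Cq 38 where a group had none. Unlike in the methods, the values tested were not filled, and filled values are an alternative. Groups were compared on this log2 scale with limma 3.58.1 (R 4.3.3), two-sided, with Benjamini-Hochberg adjustment over 388 miRNAs. Within-mouse differences were compared with exact permutation tests over all splits of the mice (Python 3.11.15). Fisher's exact tests and correlations used scipy 1.17.1. The limma fit was also run on simulated data with independent noise in each assay, which lack the correlation between assays seen here. Depth does not apply to Cq, and the number of mice limits the precision. Each mouse is 1 sample, and the smallest exact p for all 14 mice is 0.000333. The label protocol and methods mention more GEMM mice than the 8 analysed here. The members, lists and tests were chosen with earlier results of these data known. Named were every family member, the let-7a, let-7c and let-7e assays, the haemolysis pair, miRNAs of the connective tissue list past the threshold, and the 3 nearest patterns to miR-125b-5p, miR-99a and miR-100. Alternatives were the scaling, the Cq limit, the fill of missing values, the filter, the test, the haemolysis marker and leaving out each mouse.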

Additional observations from a re-analysis of the deposited data

Results flagged for a closer look

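A sample was singled out where its gap to the nearest other mouse was large for the range of its group, and chance does so in about 1 in 20 groups. Of 56 groups tested, 5 held such a mouse. miR-99a had a normalized level of -0.0843 in OS replicate 18, the lowest of 8, where the next lowest mouse with OS was at 3.48. In the same mouse miR-125b-5p over miR-99a was the highest of 8, at 5.17. The same ratio was lowest in control replicate 2, at 0.85, among 6 controls. miR-100 was lowest in OS replicate 11, at -4.53, among 7 mice with OS. let-7a over miR-100 was lowest in control replicate 1, at 1.84, among 6 controls.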

How the results depend on the processing

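No paired analysis was made, because the sample titles give only a group and a running number, with no litter. The number of family members higher in OS, 0, was 1 (miR-125a-3p) when scaled to the median or the mean of the miRNAs measured in every mouse or panel by panel, and 0 to 1 when 1 mouse was left out. For let-7 partners lower in OS it was 0 to 1. miR-125b-5p was reversed at -0.24 unscaled and at -0.0207 with the haemolysis marker. miR-125b-2-3p was reversed at -0.005 with the reference miRNAs, -0.385 unscaled and -0.399 panel by panel, and ran from -0.0564 to 0.17 when 1 mouse was left out. Connective tissue miRNAs higher in OS numbered 1 with the reference miRNAs or a Cq limit of 35, and 0 unscaled, with the methods' t-test or with the marker, and 0 to 2 when 1 mouse was left out. Those lower numbered 1 panel by panel and 0 to 3 when 1 mouse was left out. miR-99a over miR-100 was reversed at -0.18 (Cq limit 40) and -0.21 (missing values at Cq 38), with -0.0269 to 0.38 when 1 mouse was left out. Panel by panel miR-99b over miR-99b* was 0.685. With the marker it was 0.0696 and miR-125b-5p over miR-125b-2-3p was -0.15, and they ran from -0.33 to 0.23 and from -0.0331 to 0.36 when 1 mouse was left out. Within-mouse differences past the adjusted threshold, 0, numbered 3 at a Cq limit of 35 (miR-99b over miR-99a, let-7e over miR-99b and over miR-125a-5p), where only 9 pairs could be tested and the p of miR-99b over miR-99a was the same as with 14, 7 without OS replicate 15, 5 without control replicate 1 and 0 without any other mouse. The detection of rno-miR-125b* at a limit of 35, as share of OS minus share of control mice, was 0.25. With 1 mouse left out, r of miR-99a ran from -0.15 to 0.59 with miR-99b, from -0.41 to 0.57 with miR-125a-5p and from -0.18 to 0.67 with miR-125b-5p, the lowest each time without OS replicate 18. The median of all miRNAs moved by 0.14 with the median scaling, 0.25 panel by panel and -0.43 unscaled. The causes were not tested.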
